A study of Sus scrofa with 2 samples.

Results

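Matrix proteases, the plasminogen system and their inhibitors were described in pig ovary through 8 genes: the matrix metalloproteinase genes MMP2, MMP9 and MMP11, their tissue inhibitors TIMP1 and TIMP2, the plasminogen activator genes PLAU and PLAT, and the serine protease inhibitor gene SERPINE2. Probes were assigned to a gene when their transcript accession was a RefSeq accession of that gene in the pig annotation, and this gave 20 probes for the 8 genes, out of 5577 named probes and 2459 named genes on the array. The 5 proteases were set against the 3 inhibitors.

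RNA came from ovarian tissue without corpora lutea, taken on day 15 of the estrous cycle from conventional pigs (Yorkshire sows) and from minipigs (Midget minipigs), 2 breeds with no treatment. The methods name 5 animals of 10 months of age per breed, each with at least 3 completed cycles, and leave unsaid how many animals gave the RNA of each array. Each breed was measured on 1 single-colour Agilent array, so no difference has a replicate check, no test was run, and the number of arrays limits the precision.

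Matrix metalloproteinases are zinc-dependent enzymes that cut collagens, gelatin and other matrix proteins, and TIMPs bind their active site and block it. The plasminogen activators turn plasminogen into plasmin, which dissolves fibrin, cuts matrix proteins and can activate latent metalloproteinases, while inhibitors of the serpin family trap the activators and plasmin. In the ovary both systems are known for their part in follicle growth, the opening of the follicle wall at ovulation, and the building and regression of the corpus luteum.

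The array of the conventional pigs is called the pig array, beside the minipig array, as the scanner files are labelled. A second deposited table of log2 values assigns the arrays to the opposite breeds: its minipig column holds the scanner values of the pig array less a constant, to within 7.46e-07. All differences below are conventional pig minus minipig by the scanner labels, and by the labels of that table every sign turns. Of its probes, 2923 were higher in the column labelled conventional pig and 2694 in the one labelled minipig. The labels do not settle which assignment is right, and no measured value was used to choose between them. A level is the log2 intensity of a probe above the 75th percentile of its own array, which lay at an intensity of 494 on the minipig array and 513 on the pig array. Levels were compared between the arrays and not between genes, since probes bind with different strength. Over all probes the median log2 difference was -0.12, and over the 2363 named genes with a difference it was 0.04. Median centring raised the probe median by 0.15, and quantile and loess normalization each raised it by 0.11. Ovarian markers were present on both arrays, with a value for 8 of 12 granulosa and 6 of 10 oocyte markers.

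All 20 probes of the 8 genes were well above background on both arrays, and no spot on either array was saturated. Their intensities ran from 97.9 to 57735 on the minipig array and from 181 to 206155 on the pig array, over a local background of 17.5 to 27. Each of these probes was printed as 1 spot. The scanner software gave the spots an error of 10.0% to 10.3% of their intensity, or 0.20 to 0.21 on the log2 scale for a difference between the arrays. Over 42 other probes printed several times, the SD of a difference between single spots was 0.25 on the log2 scale. Of the 20 probes, 18 differed by more than 2 such SDs, and 2 probes of PLAT, at 0.45 and 0.46, did not. These technical errors do not cover the animals.

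**Figure D1:**
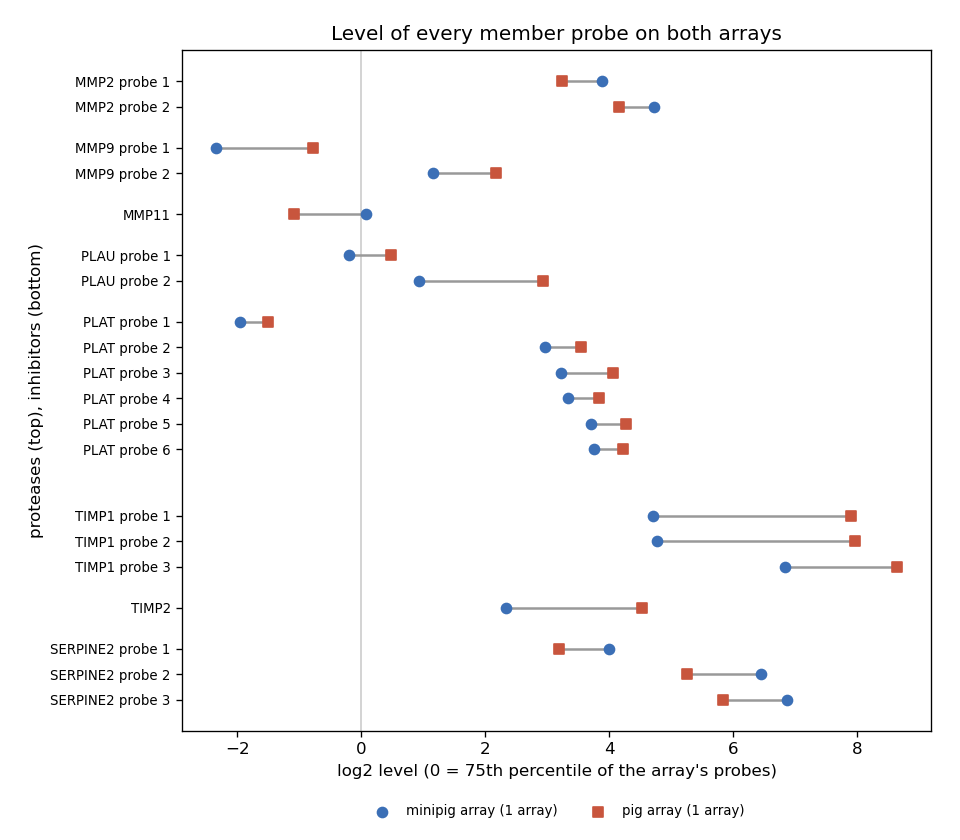
Log2 level of each of the 20 probes on the minipig array (circles) and the pig array (squares), with 0 at the 75th percentile of each array and a line joining the arrays. Proteases are above and inhibitors below. All probes of a gene shift the same way, to the left for MMP2, MMP11 and SERPINE2 and to the right for the others, and the 2 longest lines belong to TIMP1.

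Of the 20 probes, 14 were higher on the pig array and 6 on the minipig array, beside 42.0% and 58.0% of all probes. At least 2-fold higher were 7 and 3 of them in the same order, beside 7.48% and 8.94% of all probes. For the 6 genes with several probes, all probes of a gene had the same direction. Taking the median over probes, 5 genes were higher on the pig array and 3 on the minipig array, beside 52.5% and 47.5% of all named genes. The pig array was at least 2-fold higher for 4 of the 8 genes (50%), namely TIMP1, TIMP2, PLAU and MMP9, against 11.7% of all named genes. The minipig array was at least 2-fold higher for another 2 (25%), MMP11 and SERPINE2, against 7.96% of all named genes. After median centring these background shares were 15.4% and 5.93%. The median over the 8 genes was 0.91, beside the 0.04 of all named genes, and the genes had been chosen with such values known. MMP2 and PLAT stayed under 2-fold. At a cutoff of 1.5-fold the counts were 4 and 3, with MMP2 added, beside 23.7% and 16.2% of named genes, and at 3-fold they were 2 and 0, the TIMPs, beside 5.46% and 3.09%.

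The gelatinase genes differed in opposite directions. MMP2, which encodes gelatinase A, a protease of connective tissue cells, had intensities of 13141 and 7319 for its 2 probes on the minipig array and of 9137 and 4837 on the pig array. Both probes were lower on the pig array, with log2 differences of -0.58 and -0.65. The gene value was -0.61, a size of 1.53-fold, and 364 of the 2363 named genes, itself included as in the counts that follow, lay at least as far on that side. MMP9, which encodes gelatinase B, a protease known from leukocytes and many remodeling tissues, had intensities of 1103 and 97.9 on the minipig array and of 2326 and 298 on the pig array. Its brighter probe gave a log2 difference of 1.02 and its dimmer probe 1.55. The gene value of MMP9 was 1.29, or 2.44-fold higher on the pig array.

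MMP11 encodes stromelysin-3, a metalloproteinase of stromal cells that is already activated inside the cell. Its only probe had an intensity of 522 on the minipig array against 242 on the pig array. The log2 difference was -1.16, or 2.24-fold higher on the minipig array, and no other probe could check it. Of the 2363 named genes, 140 lay at least as far toward the minipig array.

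Taking medians over probes, the TIMPs showed the largest differences among the 8 genes. With the brightest probe of each gene, TIMP1 at 1.81 lay below PLAU at 2.01. TIMP1 encodes a secreted inhibitor of most metalloproteinases that is made in large amounts by luteal and follicle cells. On the minipig array its 3 probes had intensities of 12911, 13460 and 56581, and on the pig array 123371, 129023 and 206155, in the same order. Every probe was far higher on the pig array, but not by the same amount. The first and second probe gave log2 differences of 3.20 and 3.21, and the third, the brightest on both arrays, gave 1.81. The gene value of 3.20 corresponds to 9.21-fold, and 3.51-fold is the size from the brightest probe alone. Of the 2363 named genes, 16 were at least as far toward the pig array.

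TIMP2, which encodes an inhibitor that also takes part in the activation of latent MMP2 at the cell surface together with MMP14, was measured by 1 probe. The minipig array read an intensity of 2507 and the pig array 11923. This is a log2 difference of 2.20, or 4.58-fold, and 57 named genes were at least as far on that side. MMP14, the membrane-bound activator and no member of the 8 genes, had a log2 difference of -0.58 from 1 probe, close to the -0.61 of MMP2. Within this group of activator, protease and inhibitor, TIMP2 alone was higher on the pig array.

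Both plasminogen activator genes were higher on the pig array. PLAU encodes urokinase, the activator that acts on cell surfaces during tissue remodeling. Its 2 probes had intensities of 945 and 430 on the minipig array and of 3942 and 713 on the pig array. The probes differed in size, with log2 differences of 2.01 for the brighter and 0.68 for the dimmer. The gene value of 1.34, or 2.53-fold, is the midpoint of the pair, and 1 of the probes was under 2-fold.

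PLAT encodes tissue plasminogen activator, the main activator in blood clot lysis, and it is also produced by follicle cells. It had 6 probes, the most of the 8 genes, with intensities from 128 to 6707 on the minipig array and from 181 to 9878 on the pig array. The 6 log2 differences ran from 0.45 to 0.84, with an SD of 0.14 between probes. The gene value was 0.54, with 596 named genes at least as far on that side. All probes agreed in direction, and none reached 2-fold.

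SERPINE2 encodes protease nexin-1, an inhibitor of thrombin, urokinase and plasmin that is known from granulosa cells. Its 3 probes had intensities of 57735, 43504 and 7911 on the minipig array and of 29395, 19635 and 4668 on the pig array. All were higher on the minipig array, with log2 differences of -1.03, -1.20 and -0.81. The gene value of -1.03, or 2.04-fold, lay just past 2-fold, and it was -0.91 after normexp background correction and -0.87 after median centring. MMP11 was at -0.99 after normexp correction, so that none of the 8 genes was then 2-fold higher on the minipig array.

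**Figure D2:**
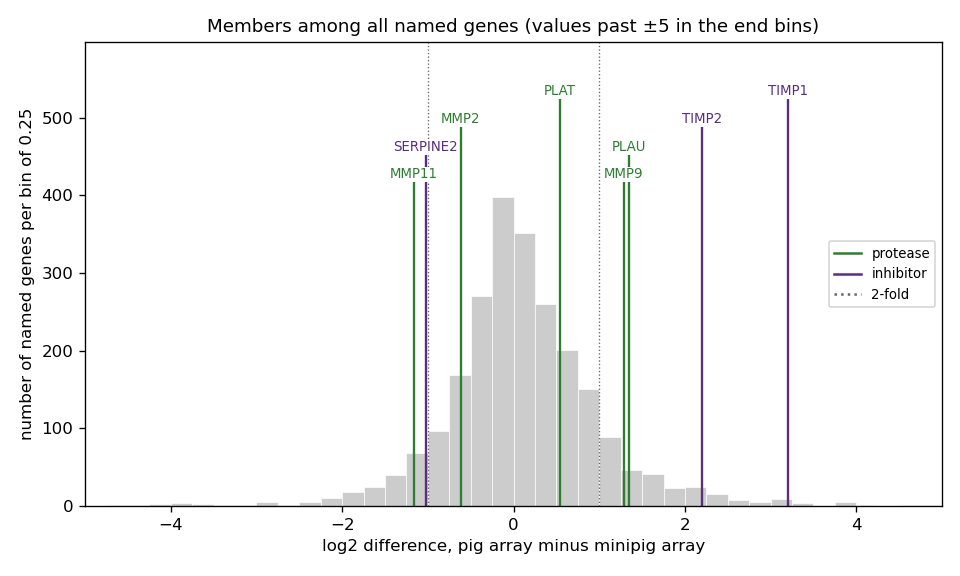
Number of named genes (grey bars, 2363 genes) by log2 difference, pig array minus minipig array, with a line for each protease (green) and inhibitor (purple) and dotted lines at 2-fold. TIMP1 at 3.20 and TIMP2 at 2.20 lie in the right tail, SERPINE2 at -1.03 and MMP11 at -1.16 lie on the left, and PLAT and MMP2 lie within 2-fold.

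Proteases and inhibitors as whole classes overlapped. The 5 proteases ran from -1.16 (MMP11) to 1.34 (PLAU), with a median log2 difference of 0.54, and the 3 inhibitors from -1.03 (SERPINE2) to 3.20 (TIMP1), with a median of 2.20. The inhibitor median exceeded the protease median by 1.66 on the log2 scale. Subtracting a constant from an array does not change this contrast, because it cancels between the classes. With means in place of medians the contrast was 1.18.

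The contrast had opposite signs in the 2 systems. For the metalloproteinases, both TIMPs lay above all 3 MMPs, and the TIMP median exceeded the MMP median by 3.31. The smallest gap was TIMP2 over MMP9, at 0.91, and the widest was TIMP1 over MMP11, at 4.37. TIMP1 exceeded MMP9 by 1.92 and TIMP2 exceeded MMP2 by 2.81. TIMP transcripts were therefore higher on the pig array relative to each MMP transcript. For the plasminogen activators, SERPINE2 lay below both, at -2.37 relative to PLAU and -1.56 relative to PLAT. SERPINE2 stands here for itself and not for all inhibitors of the activators. With the brightest probe of each gene the TIMP contrast was 2.58 and the SERPINE2 contrast was -2.26, against -1.97 with medians.

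**Figure D3:**
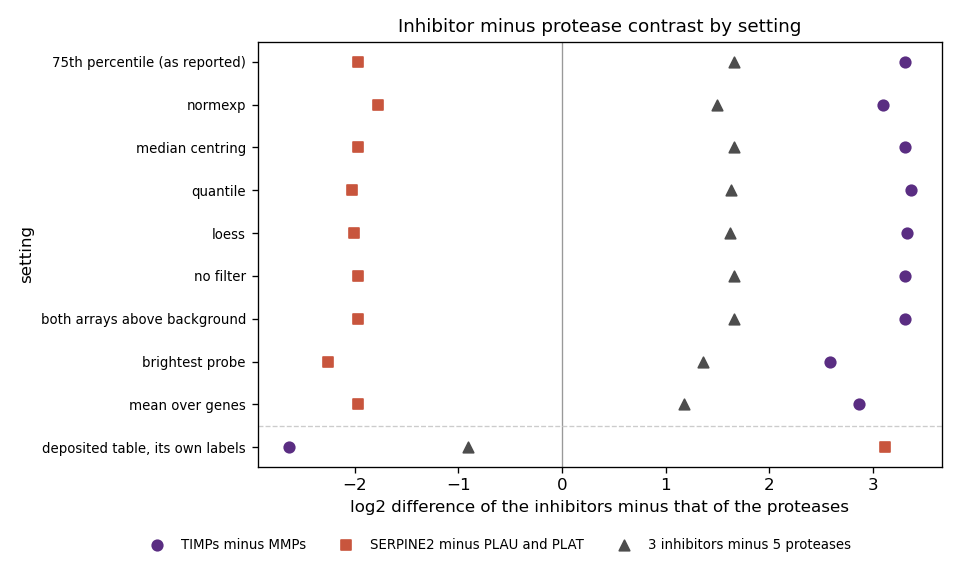
Log2 difference of the inhibitors minus that of the proteases under each setting, for TIMPs against MMPs (circles), SERPINE2 against PLAU and PLAT (squares) and all 3 inhibitors against all 5 proteases (triangles). The first stays at or above 2.58 and the second at or below -1.78 under the scanner labels, and all signs turn in the bottom row, which uses the labels of the deposited table and the members it lists, by probes past 2-fold only.

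Other genes of these systems were taken from 8 lists of proteases and inhibitors. The 5 protease lists had values for 25 of 83 genes, of which 7 (28%) were at least 2-fold higher on the pig array and 2 (8%) on the minipig array, beside 11.7% and 7.96% of all named genes. Their median log2 difference was -0.07, and it changed sign under 6 of 7 alternatives. The 3 inhibitor lists had values for 6 of 18 genes, with 2 at least 2-fold higher on the pig array, 1 on the minipig array, and a median of 0.48. These were TIMP1, TIMP2 and SERPINE2 themselves, beside the same 11.7% and 7.96% of all named genes. Both sets include the 8 genes and stand only for the genes measured. Without the 8 genes, 23 genes had a value, with a median of -0.05. Of these, 5 (21.7%) and 1 (4.35%) were past 2-fold in the same order, beside 11.7% and 7.96% of all named genes. The 1 was MMP1, by a bound toward the minipig array.

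Among metalloproteinases, 9 of 22 genes had a value, and their median log2 difference was -0.32. Of these, 7 were higher on the minipig array, beside 47.5% of all named genes and 58.0% of all probes. MMP1 and MMP20 are among the 7 only as bounds. A bound is kept only toward the array above background, so that filter fixed their side. MMP1, which encodes interstitial collagenase, was well above background on the minipig array only, with a bound of 2.57-fold toward that array. The bound took the dim reading of MMP1 on the pig array, so it is no strict minimum. MMP20, an enzyme of tooth enamel, was likewise above background on the minipig array only, by 1 of its 2 probes. Its bound was 1.16-fold toward that array, and is no strict minimum either. The other MMPs that are no members lay within 2-fold, from -0.58 for MMP14 to 0.17 for MMP12, the macrophage elastase gene. MMP3 at -0.32, MMP17 at -0.21 and MMP12 differed by less than 2 SDs of 0.25 between single spots. MMP9 was the only one of the 9 that was at least 2-fold higher on the pig array. The list of MMP inhibitors had values for TIMP1 and TIMP2 only, out of 6 genes.

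In the plasminogen lists, PLG, which encodes plasminogen itself and is made mainly in the liver, had a log2 difference of -0.07, with probes at -0.23 and 0.08. ANXA2, which encodes a cell surface receptor for plasminogen and tissue plasminogen activator, was at 1.53, or 2.90-fold higher on the pig array, with all 3 probes past 2-fold. F12, which encodes coagulation factor XII, was at -0.40 from 1 probe. No probe of KLKB1, the plasma kallikrein gene, out of 3, was well above background on both arrays or gave a bound, so it had no value. SERPING1, the C1 inhibitor gene, was at -0.04. Among the genes of this system described here, PLAU and ANXA2 were past 2-fold toward the pig array, and SERPINE2 toward the minipig array.

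Lysosomal cathepsins, which digest proteins inside cells and can act on the matrix when secreted, had values for 6 of 16 genes. CTSH was at 1.93, CTSD at 1.30 and CTSV at 1.03, each at least 2-fold higher on the pig array, and all 10 probes of CTSV were on that side, from 0.72 to 1.16. CTSB, CTSZ and CTSK lay within 2-fold. Of the cathepsin inhibitors, CSTB was 1.99-fold higher on the pig array and CST3 was at -0.05. In the ADAM and ADAMTS list, with values for 3 of 27 genes, ADAM10, a membrane-bound sheddase, was at 1.07 from 1 probe, while ADAMTS1, a protease of the ovulating follicle, was at -0.38. Of the MMP activators and inducers, 2 of 8 had a value, and neither BSG at 0.62 nor KLK4 at -0.86 was past 2-fold.

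**Figure D4:**
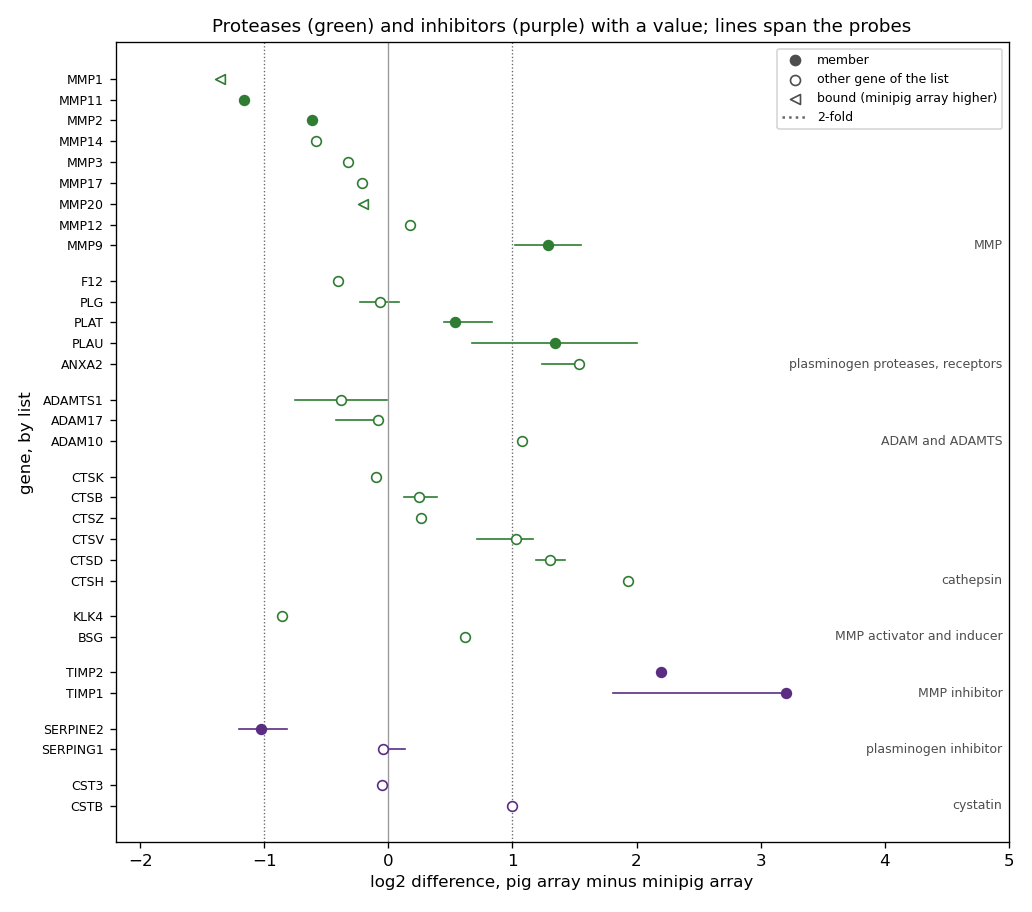
Log2 difference, pig array minus minipig array, of the 31 genes with a value in the 5 protease lists (green) and 3 inhibitor lists (purple), with filled points for the 8 genes, open points for the others, triangles for bounds and lines over the range of the probes. TIMP1 is the farthest point on the right, and 7 of the 9 MMP genes lie left of 0. Among these, MMP3 and MMP17 do so by less than 2 SDs of single spots. MMP1 and MMP20 lie there as bounds, whose side was fixed by the background filter.

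Markers of other ovarian cell types also differed between the arrays. Of all named genes, 52.5% were higher on the pig array and 47.5% on the minipig array. Past 2-fold in the same order were 11.7% and 7.96%. A summed level adds the linear levels of the genes of a list, so that the brightest genes carry most of it. The methods state that luteal tissue was cut out before RNA was extracted. The luteal list had values for 8 of 11 genes, all 8 higher on the pig array and 6 of them past 2-fold. Their median log2 difference was 2.55, and the largest was 4.52 for SCP2. OXT at 0.33 and FDX1 at 0.63, the brightest of the list on the minipig array, were under 2-fold. The summed log2 level of the list was 7.33 on the minipig array against 8.77 on the pig array. The endothelial list, with values for 3 of 9 genes, was higher on the pig array for all 3, none past 2-fold. Its summed levels were 1.84 and 2.46 in the same order, and CDH5 had probes at -0.02 and 0.74. Of the macrophage and leukocyte markers, 8 of 12 had a value and 6 of the 8 were higher on the pig array, 2 past 2-fold. The summed levels of this list were 2.79 and 3.08. Of the 6, TYROBP at 0.10, CD3E at 0.22 and CD2 at 0.24 differed by less than the SD of 0.25 between single spots.

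The granulosa list, with values for 8 of 12 genes, was higher on the minipig array for 7 of the 8, with 6 past 2-fold. Its summed levels were 5.37 and 4.18. Among the 7, FST at -0.08 differed by less than the SD of 0.25 between single spots. INHBA, among the 6, had probes at -3.91 and 0.37. The theca list, with values for all 5 genes, was higher on the minipig array for 4 of the 5. Of these, 3 were past 2-fold, and the summed levels were 6.38 and 3.65. INSL3, at -3.76, carried most of that sum on the minipig array. On the pig array the level of LHCGR was 2.68 and that of INSL3 was 2.41, which does not rank these genes by transcript amount. LHCGR was at -0.62 and NR5A1 at 0.02. The oocyte list, with values for 6 of 10 genes, was higher on the minipig array for all 6, with summed levels of 1.76 and 0.55. Of the 6, 3 were past 2-fold, beside 7.96% of all named genes. BMP15 at -0.18 differed by less than the SD of 0.25 between single spots, with probes at -0.42 and 0.05. ZP2 had probes at -1.96 and 0.46. The smooth muscle list, with values for 4 of 6 genes, was higher on the minipig array for 3 of the 4, with summed levels of 6.35 and 6.31. CNN1 at -1.32 and DES at -2.00 were past 2-fold, MYLK was at -0.20, and ACTA2, the brightest, was at 0.10. The stromal fibroblast list had values for 2 of 9 genes, 1 on each side, with summed levels of 5.56 and 5.17, and none of the 3 red blood cell markers was among the named genes. TIMP1, TIMP2, MMP9, PLAU and PLAT were thus higher on the array where most luteal, endothelial and leukocyte markers were higher. Past 2-fold there were 6 of 8 luteal, 0 of 3 endothelial and 2 of 8 leukocyte markers. SERPINE2, MMP11 and MMP2 were higher on the array where most granulosa, theca, oocyte and smooth muscle markers were higher. The part of these cell types in the differences was not tested, and in bulk tissue fewer cells of a type and less RNA per cell cannot be told apart.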

How the data were processed

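The authors hybridised Cy3-labelled cRNA to porcine Agilent arrays and, per the labels, processed the scans with Agilent Feature Extraction 10.7.3.1. The deposited intensity is corrected for background and spatial trends, not between arrays. The authors also deposited log2 values for 5617 probes, of which 10 are probes of the 8 genes. Every probe of this table differs by at least 2-fold between its columns, and it holds 5601 of the 7669 probes past 2-fold in the scanner values. Which further filter was applied is not given in the sources used here.

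After control and outlier spots were dropped, log2 intensities of repeated spots were averaged and centred on the 75th percentile of their array, which left 43597 probes. Where 1 array only was well above background, a bound was computed from the lowest passing intensity of the dim array or, if higher, the probe's own. A bound was kept only toward the array above background, and it is no strict minimum. Genes take the median of their probes. Unversioned accessions were looked up in the RefSeq table of Sscrofa11.1. No build is named for the array, so no coordinates are given. The members and lists were chosen with earlier results of these data known. Genes named were the 8 members, list genes past 2-fold, and all genes with a value in the MMP inhibitor and plasminogen lists. Further list genes and markers were named after their values were seen. Past 2-fold counted as called. The values of 1 listed gene are not reported here, and it is left out of the counts and medians of its list.

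Alternatives were normexp background correction (offset 50, on median spot signal and median local background), median centring, quantile and loess normalization (span 0.3), 2 other filters, the brightest probe, the deposited log2 table, and cutoffs of 1.5-fold and 3-fold. The steps were tested on simulated data. Software was Python 3.11.15, numpy 2.4.6, pandas 2.3.3, statsmodels 0.14.6, matplotlib 3.10.9, R 4.3.3 and limma 3.58.1.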

Additional observations from a re-analysis of the deposited data

How the results depend on the processing

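The direction of each of the 8 genes held under normexp correction, median centring, and quantile and loess normalization. Both filters and the brightest probe gave the same directions, but they could not have changed them. The filters removed no probe of these genes, so each gene kept its main value. All probes of a gene had the same sign, so its brightest probe had that sign too. Ranges over all these settings follow. TIMP1 ran from 1.81 to 3.36, TIMP2 from 1.86 to 2.35, PLAU from 1.23 to 2.01, MMP9 from 1.02 to 1.44, PLAT from 0.23 to 0.69, MMP2 from -0.97 to -0.46, MMP11 from -1.16 to -0.99 and SERPINE2 from -1.29 to -0.87.

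With the breed labels that the deposited table carries, all signs turned: TIMP1 -3.20, TIMP2 -2.19, PLAU -2.00, MMP9 -1.28, MMP11 1.17, SERPINE2 1.12, the protease median -1.28, the inhibitor median -2.19, inhibitors minus proteases -0.91, TIMPs minus MMPs -2.64 and SERPINE2 minus the activators 3.12, with 2 genes at least 2-fold higher for the conventional pig and 4 for the minipig. Since the table holds only probes past 2-fold, each gene it lists is past 2-fold by construction, and these counts, medians and contrasts are set by that filter. It lists neither MMP2 nor PLAT, 1 of 2 probes of PLAU and 2 of 3 of SERPINE2, and gives no list medians or shares.

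Past 2-fold toward the minipig array, normexp left 0 of the 8 genes, 0 of the protease and 0 of the inhibitor lists, with 4.15% of named genes and 3.63% of probes. Median centring left 1 of the 8 genes and 0 of the inhibitor lists there, and a 3-fold cutoff 0, with 2 toward the pig array. Probes above background on both arrays left 1 protease list gene toward the minipig array. The median of the protease lists was 0.014 with normexp, 0.083 with median centring, 0.12 with quantile, 0.10 with loess, 0.17 with probes above background on both arrays and 0.085 with the brightest probe. Quantile normalization gave a protease median of 0.23, an inhibitor median of 1.86 and 0.13 for the inhibitor lists. The brightest probe gave an inhibitor median of 1.81, inhibitors minus proteases of 1.36, TIMPs minus MMPs of 2.58 and SERPINE2 minus the activators of -2.26. Added after seeing the data, means over genes gave 0.28 for proteases, 1.46 for inhibitors, 1.18 for their contrast, and 2.86 for TIMPs minus MMPs. The cause of these shifts was not tested. Naming by a gene name column was not run, since the scanner files hold none. No paired analysis was possible because each breed has 1 array. Dim probes such as those of MMP1, MMP20 and KLKB1 are limited by background.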
